A study of Mus musculus with 20 samples.

Results

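The genes described here are 44 lysosomal enzymes, cofactors and membrane proteins, taken by symbol from a fixed list and matched to the Ensembl gene IDs of the count tables. They are 44 of the 46078 genes in the tables, and all 44 passed the filter on low counts in every comparison. By role they comprised 9 cysteine proteases, a group of 4 with other proteases and a thioesterase, 12 glycosidases, 5 sulfatases, 3 lipid hydrolases, 3 cofactors, 6 membrane proteins, and a regulator with an inhibitor.

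Poly(A) RNA was sequenced from brain tissue of wild-type C57BL/6J male mice, 18 months old, collected 7 weeks after DH stroke, in which occlusion of the distal middle cerebral artery is combined with hypoxia. From 1 week after stroke the mice received subcutaneous injections of vehicle (PBS) or HPBCD at 4 g/kg, 3 times per week for 6 weeks. HPBCD is hydroxypropyl-β-cyclodextrin, a ring of sugars that holds cholesterol. Tissue around the infarct (peri-infarct) was dissected after the infarct itself had been removed, and the corresponding region of the other hemisphere (contralateral) was taken from the same brains. There were 5 libraries in each of the 4 groups, from 10 mice. All groups had stroke, so no uninjured brain serves as a reference. The libraries of each treatment come from different mice, and nothing in the counts checks which treatment a mouse received. The groups are therefore named as their labels name them.

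Lysosomes are acidic organelles in which proteases, glycosidases, sulfatases and lipases break down material taken up from outside the cell or delivered by autophagy. Most of these enzymes are sorted to the lysosome by mannose 6-phosphate tags, and they work inside a membrane of heavily glycosylated proteins. Some need small cofactor proteins to reach lipid substrates. In the brain, phagocytic microglia and macrophages are rich in them, and inherited loss of many of these genes causes storage disease with neurodegeneration.

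Single libraries held 14445021 to 22171627 gene counts (median 19008532). A count of 3 corresponded to 0.126 to 0.228 CPM (the count as a share of the library, with library sizes scaled by TMM factors), well under the level of every gene in the list. Some libraries stood apart in markers of regions and cell types. Striatum markers summed to 3375 CPM in vehicle contralateral replicate 1 against 197 to 283 CPM in the other vehicle contralateral libraries, and choroid plexus markers summed to 633 CPM in HPBCD contralateral replicate 3 against 1.30 to 6.85 CPM in the rest of its group. Neuron markers summed to between 3367 and 11971 CPM over all libraries. In whole tissue, fewer cells of a type cannot be told apart from less RNA per cell.

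Levels per unit of length differed widely. In vehicle contralateral tissue the precursor of the saposins, Psap, stood first at 515 CPM per kb of exon, followed by Ctsd (156), Lamp1 (144), Ctsb (104) and Ids (87.6). The lowest were the heparan sulfamidase Sgsh (0.872 CPM per kb), the membrane protein Cln3 (1.23) and Ctsc (1.50). The strand setting of the counting is not given, so the counts of genes whose exons overlap a listed gene on the opposite strand are less certain. In the GENCODE annotation Card14 covers 21.6% of the exon bases of Sgsh, C230037L18Rik 18.8% of those of Arsa and Gm26527, itself listed with 0 counts in all libraries, 32.3% of those of Arsb.

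Many lysosomal genes carry E-boxes near their start, the letters read by Tfeb and its relatives of the MiT family, so the promoters were searched for these letters. RefSeq promoters (build GRCm38.p6, 250 bases before to 50 after each start) were found for 39 of the 44 genes. The E-box core CACGTG, its own reverse complement and therefore read on both strands, was present in 14 of the 39 (35.9%), against 8.09% of 27025 genes with a promoter and 22.2% of 63 other lysosomal genes. The longer TCACGTGA, which contains the core, was present in 5 of 39 (12.8%), namely Ctsa, Ctsd, Gla, Mcoln1 and Cln3, against 1.12% of all genes and 11.1% of the 63 other lysosomal genes. GAGGAAGT, letters of the kind read by the myeloid factor PU.1 and searched on both strands, was present in Ctsc, Ctss, Gla and Gusb (10.3% of 39) against 3.69% of all genes and 0 of the 63. A match describes the letters in the window and is not evidence of binding.

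Ctsd and Lamp1 are printed in full because Ctsd carries the longer form and Lamp1 carries 4 copies of the core within 61 bases of its start. Capitals mark each E-box.
Ctsd promoter (chr7:142387778-142388077, minus strand): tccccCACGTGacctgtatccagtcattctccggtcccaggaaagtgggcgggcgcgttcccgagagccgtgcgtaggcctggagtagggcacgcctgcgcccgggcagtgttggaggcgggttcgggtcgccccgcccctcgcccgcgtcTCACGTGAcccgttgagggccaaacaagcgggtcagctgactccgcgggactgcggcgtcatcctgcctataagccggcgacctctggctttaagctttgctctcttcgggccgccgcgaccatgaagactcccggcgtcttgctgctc
Lamp1 promoter (chr8:13158911-13159210, plus strand): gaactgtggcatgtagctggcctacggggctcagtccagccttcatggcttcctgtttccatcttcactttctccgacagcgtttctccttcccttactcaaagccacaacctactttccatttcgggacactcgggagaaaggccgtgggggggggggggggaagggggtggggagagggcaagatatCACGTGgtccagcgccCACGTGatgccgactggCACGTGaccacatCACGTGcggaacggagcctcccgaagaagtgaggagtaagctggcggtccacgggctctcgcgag

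The other 12 genes with an E-box are shown by 1 short window each, that of their longest match or, if equal, the copy nearest the start. Capitals mark the match, and the first base of its core CACGTG is counted from the start site, with 1 as the first transcribed base.
Ctsa (promoter chr2:164833523-164833822, plus strand, core from 6): cagatgcTCACGTGAccagagc
Cln3 (promoter chr7:126583187-126583486, minus strand, core from -121): ggtactgTCACGTGAcccccaa
Mcoln1 (promoter chr8:3500269-3500568, plus strand, core from -45): gccccgcTCACGTGAccgcggc
Gla (promoter chrX:134600956-134601255, minus strand, core from -194): atctcggTCACGTGAgcaactc
Glb1 (promoter chr9:114400828-114401127, plus strand, core from -48): ttctgagtCACGTGgcctacag
Naglu (promoter chr11:101069844-101070143, plus strand, core from -73): cttcaggtCACGTGgcccgagg
Gaa (promoter chr11:119267713-119268012, plus strand, core from -140): tgtgcgatCACGTGtttgactc
Sgsh (promoter chr11:119355461-119355760, minus strand, core from -29): ctgccgtgCACGTGaccgtggg
Lgmn (promoter chr12:102439043-102439342, minus strand, core from -49): atgtctgtCACGTGgtccattt
Ctsl (promoter chr13:64370471-64370770, minus strand, core from -236): ttagaagcCACGTGctgatcta
Arsa (promoter chr15:89477375-89477674, minus strand, core from -16): ctcagtgtCACGTGttgtctgc
Ctsf (promoter chr19:4854915-4855214, plus strand, core from -79): ccgtggtcCACGTGcctcgcgt

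The first comparison set peri-infarct against contralateral tissue in mice given vehicle. Of the 44 genes, 21 (47.7%) were higher in peri-infarct tissue at an edgeR adjusted p below 0.05 and none was lower, where 10.5% of all 15801 genes tested were called higher and 9.70% lower. The median log2 fold change was 0.39 for the 44 genes and 0.01 for all genes, and 39 of 44 lay above 0. The largest changes were in 4 cathepsins, Ctss, Ctsh, Ctsd and Ctsc. For 10 genes every peri-infarct library was above every contralateral library (6.72% of all genes), and for 0 genes below (6.70% of all genes). At an unadjusted p below 0.05 (34.4% of all genes, in either direction), 3 genes (Neu1, Smpd1 and Mcoln1) were lower, and DESeq2 called 1 of them, Neu1. Leaving out vehicle peri-infarct replicate 4 or vehicle contralateral replicate 5 left a count of 13, and 13 genes passed in all 10 fits that left out 1 library. The 8 that did not were Ctsl, Naglu, Fuca1, Sgsh, Pla2g15, Lamp1, Lamp2 and Cln3. With the mouse as a replicate block, 18 of the 21 were called.

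**Figure D1:**
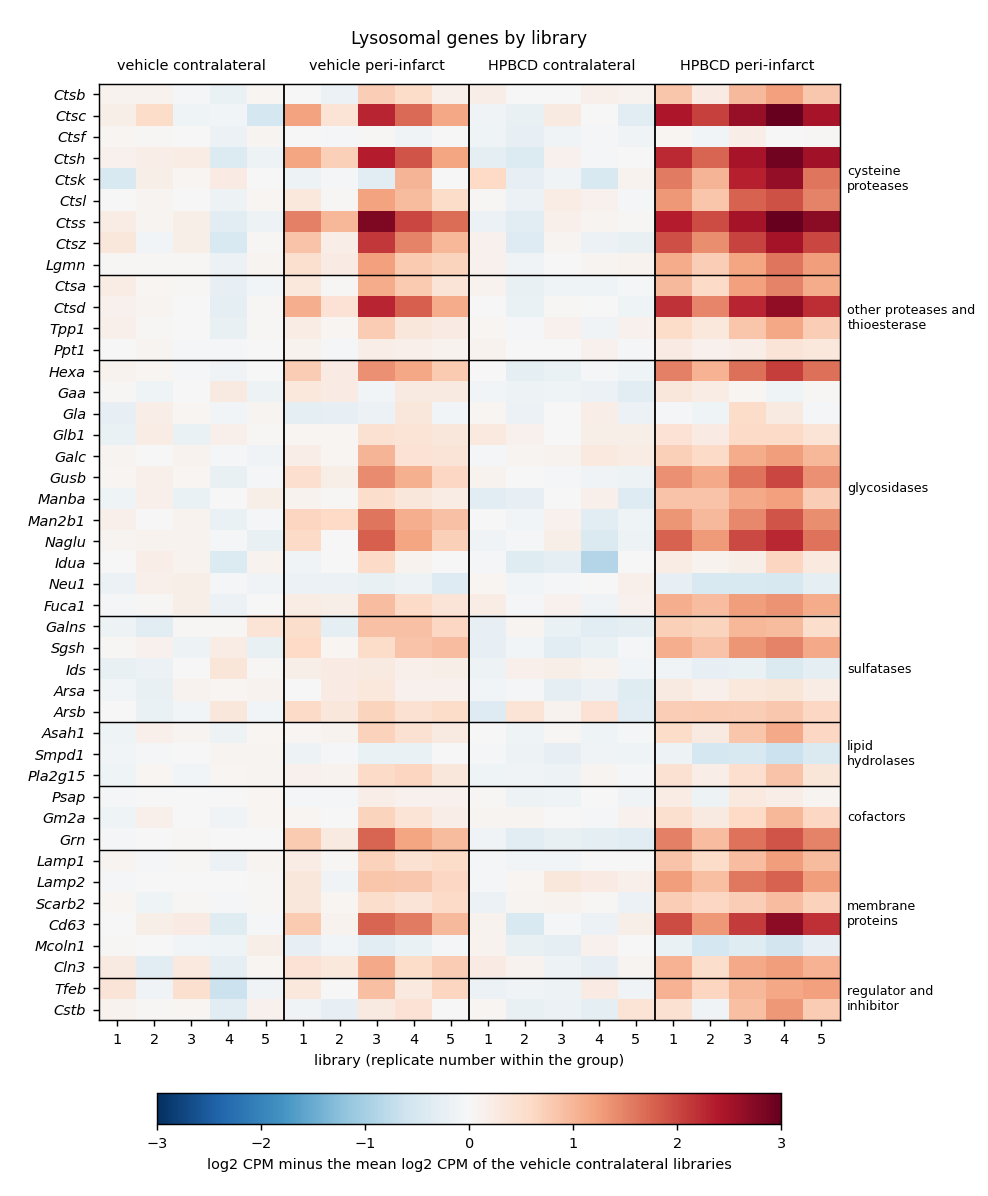
Each row is 1 of the 44 lysosomal genes, grouped by role, and each column 1 of the 20 libraries. Colour gives log2 CPM minus the mean log2 CPM of the vehicle contralateral libraries, and values past 3 take the darkest colour. Red is concentrated in the peri-infarct columns, with HPBCD replicate 4 the highest of its group for 34 genes and vehicle replicate 3 of its own for 34, while Ids, Neu1, Smpd1 and Mcoln1 are pale or blue there.

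Among the cysteine proteases 6 of 9 rose. Ctss (ENSMUSG00000038642, chr3:95526786-95556403, plus strand), cathepsin S, which trims the invariant chain of MHC class II in phagocytes, measured 127, 115, 122, 86.9 and 97.3 CPM in vehicle contralateral replicates 1 to 5. In the vehicle peri-infarct replicates it measured 309, 215, 756, 434 and 348 CPM. The groups did not overlap, replicate 3 was highest, and the log2 fold change was 1.90 ± 0.28 SE, adjusted p = 0.00235 by edgeR. Cathepsin H, an aminopeptidase encoded by Ctsh (ENSMUSG00000032359, chr9:90054152-90076089, plus strand), went from 14.2, 14.9, 15.2, 9.84 and 11.7 CPM to 29.6, 21.4, 66.6, 48.2 and 29.5 CPM. Again no library overlapped, and the log2 fold change was 1.56 ± 0.28 SE, adjusted p = 0.00444 by edgeR.

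Cathepsin C, encoded by Ctsc (ENSMUSG00000030560, chr7:88278085-88310888, plus strand), removes dipeptides and activates granule proteases. It rose by 1.43 on the log2 scale (adjusted p = 0.00966 by edgeR), although peri-infarct replicate 2, at 11.3 CPM, lay under the contralateral maximum of 12.3 CPM. The carboxypeptidase Ctsz (log2 fold change 1.24), the asparaginyl endopeptidase Lgmn (0.71) and Ctsl (0.66) also rose, with edgeR adjusted p from 0.00915 to 0.0282. Ctsl lost its call with the replicate block (adjusted p = 0.0524). Cathepsin B, the most abundant of the group, had 628 ± 55.2 CPM in contralateral and 769 ± 206 CPM in peri-infarct libraries (SD, n = 5), with an edgeR adjusted p of 0.234. Ctsf and Ctsk had log2 differences of -0.04 and 0.16 and were not called.

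Of the other proteases and the thioesterase only the aspartic protease cathepsin D was called. Ctsd (ENSMUSG00000007891, chr7:142375911-142388038, minus strand), one of the main endopeptidases of the lysosome, measured 402, 389, 371, 303 and 374 CPM in vehicle contralateral and 774, 493, 1774, 1268 and 789 CPM in vehicle peri-infarct libraries. Its lowest peri-infarct library stood above its highest contralateral library, with a log2 fold change of 1.46 ± 0.28 SE, adjusted p = 0.00595 by edgeR. The carboxypeptidase Ctsa, which holds Glb1 and Neu1 in a complex, missed the threshold at an edgeR adjusted p of 0.0501 (log2 difference 0.56). Tpp1 and Ppt1, whose loss causes neuronal ceroid lipofuscinoses, had log2 differences of 0.33 and 0.10.

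Glycosidases were called for 5 of 12 genes. The lysosomal α-mannosidase Man2b1 (ENSMUSG00000005142, chr8:85083270-85098282, plus strand) measured 46.2, 41.5, 45.4, 36.6 and 40.5 CPM on the contralateral and 65.3, 63.3, 128, 88.8 and 76.9 CPM on the peri-infarct side of vehicle mice. All peri-infarct values were above all contralateral values, and the log2 fold change was 1.00 ± 0.18 SE, adjusted p = 0.00423 by edgeR. Naglu (ENSMUSG00000001751, chr11:101070012-101077672, plus strand), which removes N-acetylglucosamine from heparan sulfate, went from 8.79, 9.04, 9.01, 8.04 and 7.13 CPM to 12.4, 8.31, 28.8, 18.9 and 13.7 CPM, with 1 peri-infarct library (replicate 2) among the contralateral values. Its log2 fold change was 0.96 ± 0.27 SE, adjusted p = 0.0297 by edgeR, and with limma voom the adjusted p was 0.0678.

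The α-subunit of β-hexosaminidase, Hexa (ENSMUSG00000025232, chr9:59539540-59565109, plus strand), rose by 0.90 on the log2 scale (adjusted p = 0.00533 by edgeR), the β-glucuronidase Gusb by 0.80 (0.0172) and the fucosidase Fuca1 by 0.47 (0.0323). Hexa and Gusb did not overlap between regions. The other 7 glycosidases, which include acid α-glucosidase (Gaa), β-galactosidase (Glb1) and the myelin lipid enzyme Galc, lay between -0.24 for Neu1 and 0.45 for Galc, and none was called.

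Among the sulfatases Arsb and Sgsh were called. Arsb (ENSMUSG00000042082, chr13:93771630-93943016, plus strand), which acts on dermatan sulfate, measured 37.9, 32.6, 35.5, 47.6 and 35.7 CPM in contralateral and 56.1, 47.2, 60.0, 51.4 and 55.0 CPM in peri-infarct libraries of vehicle mice, where contralateral replicate 4 reached into the peri-infarct range. Its log2 fold change was 0.50 ± 0.10 SE, adjusted p = 0.00838 by edgeR. Sgsh (ENSMUSG00000005043, chr11:119343425-119355536, minus strand), a sulfamidase of heparan sulfate and the least abundant gene of the list per length, rose by 0.60 (edgeR adjusted p = 0.0312), a call that was lost with the replicate block (adjusted p = 0.0655). Galns, Ids and Arsa had log2 differences of 0.55, 0.18 and 0.15.

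The lysosomal phospholipase Pla2g15 (ENSMUSG00000031903, chr8:106150399-106164715, plus strand) was the 1 lipid hydrolase called. It measured 24.2, 27.4, 25.1, 27.6 and 27.7 CPM and 28.7, 28.4, 39.0, 41.2 and 33.2 CPM in the contralateral and peri-infarct libraries, without overlap but by a small step (log2 fold change 0.36 ± 0.11 SE, adjusted p = 0.0406 by edgeR). With the replicate block its adjusted p was 0.0502. Acid ceramidase (Asah1) and acid sphingomyelinase (Smpd1) differed by 0.32 and -0.14 on the log2 scale.

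Of the cofactors, progranulin rose. Grn (ENSMUSG00000034708, chr11:102430315-102437048, plus strand), whose product is cleaved to granulins in the lysosome, measured 50.1, 51.1, 52.8, 51.0 and 51.8 CPM in contralateral libraries, a spread of 1.03 CPM (SD), and 88.6, 62.1, 173, 117 and 98.4 CPM in peri-infarct libraries. The groups did not overlap and the log2 fold change was 1.06 ± 0.21 SE, adjusted p = 0.00699 by edgeR. Psap, the most abundant transcript of the list, had 1413 ± 46.7 CPM in contralateral and 1483 ± 118 CPM in peri-infarct libraries (SD, n = 5) and an edgeR adjusted p of 0.618. The ganglioside activator Gm2a differed by 0.28.

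Membrane proteins were called in 5 of 6 cases. The tetraspanin Cd63 (ENSMUSG00000025351, chr10:128900989-128912822, plus strand), found on late endosomes and exosomes, measured 49.3, 56.5, 59.6, 38.6 and 48.6 CPM and 85.5, 54.0, 168, 146 and 97.5 CPM, with peri-infarct replicate 2 within the contralateral range and a log2 fold change of 1.11 ± 0.26 SE, adjusted p = 0.0126 by edgeR. Cln3 (ENSMUSG00000030720, chr7:126571207-126585817, minus strand), the protein lost in juvenile ceroid lipofuscinosis, went from 8.41, 5.61, 8.53, 5.71 and 7.23 CPM to 9.43, 8.72, 15.3, 10.2 and 11.8 CPM, without overlap (log2 fold change 0.63 ± 0.18 SE, adjusted p = 0.0314 by edgeR). The main glycoproteins of the membrane, Lamp1 and Lamp2, rose by 0.39 and 0.53 on the log2 scale, and Scarb2, the receptor that carries β-glucocerebrosidase, by 0.37 (edgeR adjusted p = 0.0351, 0.0257 and 0.0162). The cation channel Mcoln1 differed by -0.19 and was not called. Neither Tfeb (log2 difference 0.40, edgeR adjusted p = 0.232) nor the cathepsin inhibitor Cstb (0.07, adjusted p = 0.771) was called.

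Markers of some phagocytes moved with these genes. In the same comparison 8 of 8 microglia markers and 9 of 10 lipid-laden markers (genes known from foamy or disease-associated phagocytes) were called higher. Of the perivascular macrophage markers 1 of 6 tested was called higher (median log2 difference -0.02). Of 5 monocyte and neutrophil markers 0 passed the filter on low counts. The summed microglia markers went from 249 to 291 CPM in vehicle contralateral to 383 to 839 CPM in vehicle peri-infarct libraries, and the lipid-laden markers from 158 to 219 CPM to 239.9 to 1115 CPM. All 6 reactive astrocyte markers were called higher and 3 of 8 neuron markers lower. Also higher were 3 of 7 astrocyte, 1 of 5 fibroblast and 1 of 4 ependyma markers tested, and the 1 marker tested of B and plasma cells. Of 7 oligodendrocyte and 5 endothelial markers 0 were called by edgeR. The sum of the 44 genes was 18.2 to 21.0 times the microglia sum in contralateral libraries and 11.6 to 15.4 times in peri-infarct libraries. T cell markers summed to at most 8.15 CPM in any library, with 1 of 5 at 0 in all vehicle contralateral libraries. The part of cell composition in the result was not tested.

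The second comparison asked the same of mice given HPBCD. Of the 44 genes, 37 (84.1%) rose in peri-infarct tissue and 4 (9.09%) fell, where 30.3% of all 16047 genes were called higher and 24.3% lower. The median log2 fold change of the 44 was 0.96, against 0.03 for all genes. For 34 genes every peri-infarct library lay above every contralateral library, and for 1 gene, Neu1, below it (24.3% and 18.3% of all genes). Of the 37, 34 passed in all 10 fits without 1 library (the exceptions were Ppt1, Gaa and Glb1), and all 37 were called with the replicate block. The genes not called were Ctsf, Gla and Psap, with log2 differences of 0.18, 0.15 and 0.21.

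The largest log2 fold changes were those of Ctsc and Ctss. Ctsc measured 7.79, 7.21, 10.2, 8.44 and 6.77 CPM in HPBCD contralateral and 45.7, 35.1, 52.0, 83.2 and 46.9 CPM in HPBCD peri-infarct libraries, a 6.51-fold rise (log2 2.70 ± 0.21 SE, adjusted p = 9.58e-07 by edgeR). Ctss went from 96.1, 86.8, 121, 115 and 112 CPM to 559, 423, 617, 1044 and 709 CPM (log2 fold change 2.65 ± 0.21 SE, adjusted p = 9.86e-07 by edgeR). For both, every peri-infarct library stood far above every contralateral library, and replicate 4 was highest. Ctsh rose by 2.54, Ctsd by 2.26, Ctsz by 2.12 and Ctsl by 1.46 on the log2 scale, at an adjusted p by edgeR of at most 1.29e-05. Ctsk (ENSMUSG00000028111, chr3:95499256-95509362, plus strand), a collagen-degrading protease best known from osteoclasts, measured 6.09, 3.43, 3.79, 2.97 and 4.34 CPM and 12, 8.16, 20.3, 25.4 and 12.4 CPM, without overlap (log2 fold change 1.91 ± 0.29 SE, adjusted p = 0.000135 by edgeR).

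Of the 12 glycosidases 10 rose, led by Naglu (1.91), Hexa (1.76), Gusb (1.57) and Man2b1 (1.51) on the log2 scale (adjusted p from 1.53e-06 to 3.22e-06 by edgeR). Hexa measured 48.0, 40.0, 42.5, 46.9 and 44.4 CPM in HPBCD contralateral and 140.1, 99.7, 153, 204 and 154 CPM in HPBCD peri-infarct libraries, with no overlap. Manba (ENSMUSG00000028164, chr3:135485611-135571404, plus strand), β-mannosidase, rose by 1.14 and Fuca1 (ENSMUSG00000028673, chr4:135920735-135940311, plus strand) by 1.08 (edgeR adjusted p = 2.02e-05 and 1.74e-06). Gaa and Glb1 rose by 0.29 and 0.29, the smallest steps called in the group, and their libraries overlapped.

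All sulfatases but Ids rose, from Arsa at 0.46 to Sgsh at 1.37. Sgsh measured 3.24, 3.63, 3.03, 3.35 and 3.66 CPM on the contralateral side and 8.16, 6.94, 9.54, 10.7 and 8.47 CPM around the infarct of HPBCD mice, again without overlap. Among lipid hydrolases Asah1 rose by 0.76 and Pla2g15 by 0.56. Grn rose by 1.76 and Gm2a by 0.56.

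Cd63 led the membrane proteins at 2.17 ± 0.21 SE, adjusted p = 3.42e-06 by edgeR, with 53.8, 36.5, 48.9, 43.9 and 56.7 CPM in contralateral and 195, 124, 215, 323 and 229 CPM in peri-infarct libraries. Lamp2 rose by 1.22, Cln3 by 0.99, Lamp1 by 0.96 and Scarb2 by 0.77, each without overlap between regions. Tfeb (ENSMUSG00000023990, chr17:47737030-47792419, plus strand), which activates lysosomal genes when mTORC1 releases it to the nucleus, measured 7.74, 8.07, 7.79, 10.3 and 8.06 CPM and 17.9, 13.6, 17.3, 19.4 and 20.4 CPM (log2 fold change 1.08 ± 0.12 SE, adjusted p = 1.42e-05 by edgeR). The inhibitor Cstb (ENSMUSG00000005054, chr10:78425669-78427622, plus strand) rose by 0.75 (edgeR adjusted p = 0.0104), though peri-infarct replicate 2, at 12.1 CPM, lay within the contralateral range.

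The 4 genes that fell are of different kinds. Neu1 (ENSMUSG00000007038, chr17:34931253-34935953, plus strand), the lysosomal sialidase, measured 69.0, 62.5, 64.1, 66.4 and 73.5 CPM in HPBCD contralateral and 55.5, 48.2, 48.4, 47.0 and 53.8 CPM in HPBCD peri-infarct libraries, all lower (log2 fold change -0.41 ± 0.08 SE, adjusted p = 0.000621 by edgeR). Smpd1 (ENSMUSG00000037049, chr7:105554360-105558389, plus strand), acid sphingomyelinase, went from 88.0, 82.7, 77.6, 84.7 and 83.0 CPM to 82.9, 63.1, 66.2, 58.1 and 68.2 CPM and overlapped through peri-infarct replicate 1 (log2 fold change -0.30 ± 0.09 SE, adjusted p = 0.0164 by edgeR). Mcoln1 (ENSMUSG00000004567, chr8:3500457-3515232, plus strand) encodes the channel that releases calcium from lysosomes. It measured 49.9, 39.9, 38.3, 51.0 and 46.6 CPM and 40.5, 32.6, 36.0, 32.1 and 39.1 CPM, with overlap (log2 fold change -0.32 ± 0.10 SE, adjusted p = 0.0174 by edgeR). Ids (ENSMUSG00000035847, chrX:70343069-70365084, minus strand), the iduronate sulfatase, fell by 0.30 on the log2 scale (adjusted p = 0.024 by edgeR), and was not called without HPBCD contralateral replicate 2, 3 or 4 (adjusted p up to 0.0641). In vehicle mice Neu1, Smpd1 and Mcoln1 were lower on the peri-infarct side in all 5 mice, with log2 differences of -0.24, -0.14 and -0.19 that were not called.

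In HPBCD mice other tissue markers moved as well. All 8 microglia markers and all 10 lipid-laden markers were called higher, all 8 neuron markers lower, and all 7 oligodendrocyte, all 5 fibroblast and all 8 striatum markers higher. Higher as well were all 6 reactive astrocyte markers (median log2 difference 4.71), all 5 ependyma markers (3.54), 6 of 7 perivascular macrophage markers, 4 of 7 astrocyte markers, 1 of 4 choroid plexus markers, and each of the 3 markers tested of monocytes and neutrophils, of T cells and of B and plasma cells. Of 5 endothelial markers 1 was higher and 1 lower. Striatum markers summed to 204 to 248 CPM in HPBCD contralateral and to 644 to 2003 CPM in HPBCD peri-infarct libraries. In vehicle mice 0 of 8 striatum markers were called by edgeR and 0 had an unadjusted p below 0.05, but 1 contralateral library, replicate 1, had a sum of 3375 CPM. The other 4 had 197 to 283 CPM, and all vehicle peri-infarct libraries stood above those 4, at 333 to 1909 CPM. Results of these markers without replicate 1 are not given here. The share of tissue types in each dissection was not tested as a part of the result.

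The region differences of both treatments rest on separate libraries and can be set side by side. For 44 of 44 genes the log2 difference was farther from 0 in HPBCD than in vehicle mice, but the same held for 78.9% of all 15570 genes tested in both. The sign was the same for 41 of 44 (80.2% of all genes), the exceptions being Ids, Ctsf and Gla. Across the 44 genes the differences correlated with r = 0.913 (Pearson) and rho = 0.897 (Spearman), and across all genes with r = 0.84. Genes are not independent replicates, so these are descriptions.

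**Figure D2:**
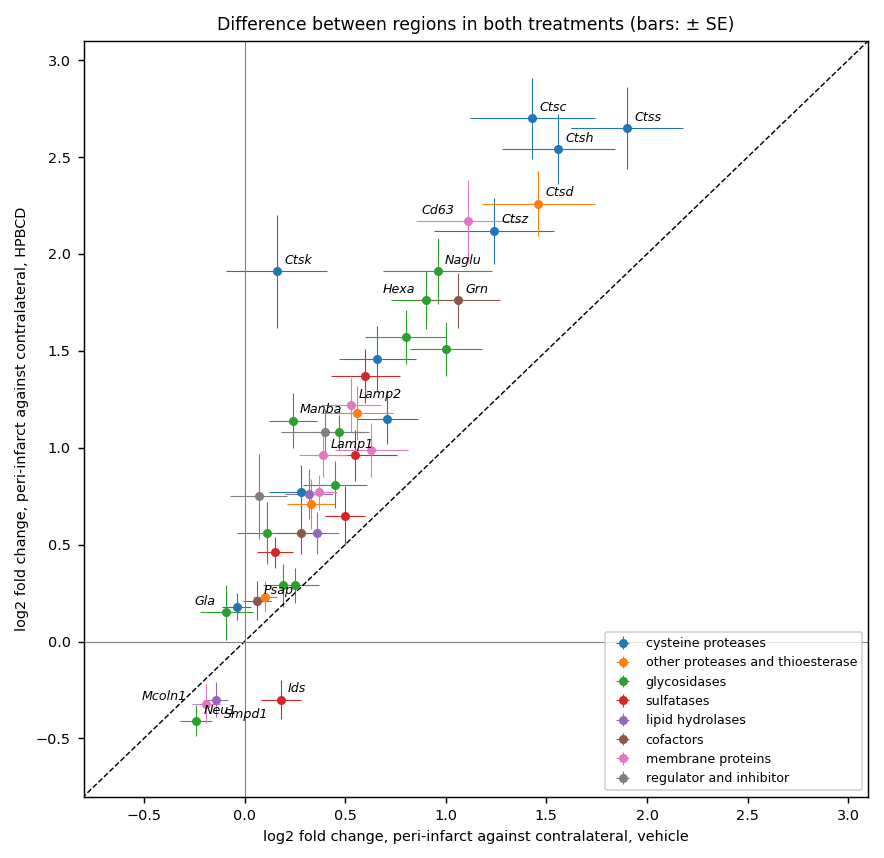
Each point is 1 of the 44 genes, coloured by role, with its log2 fold change between peri-infarct and contralateral tissue in vehicle mice on the x axis and in HPBCD mice on the y axis (bars: SE). The dashed line marks equal change. All points above 0 on the y axis lie above the line, Ctsk farthest from it, and Neu1, Smpd1 and Mcoln1 lie below 0 on both axes.

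Genes with and without an E-box core in the promoter had similar median region differences. In vehicle mice 7 of 14 genes with CACGTG and 13 of 25 without it were called higher, with medians of 0.48 and 0.40 on the log2 scale. In HPBCD mice 11 of 14 and 21 of 25 were called higher, with medians of 0.97 and 1.08. The 4 genes with GAGGAAGT had medians of 1.11 and 2.11, against 0.39 and 0.96 for the other 35. Called higher were 3 of 4 with it and 17 of 35 without it in vehicle mice, and 3 of 4 and 29 of 35 in HPBCD mice. A median of 4 genes is a description only.

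The third comparison set peri-infarct libraries labelled HPBCD against those labelled vehicle. The direction of the differences between these groups rests on the labels, which no value in the counts checks, and it would turn if the labels had been exchanged. The same labels enter the region comparisons and the interaction. Of the 44 genes 13 (29.5%) were higher in the HPBCD libraries and 2 (4.55%) lower, where 12.4% of all 16224 genes were called higher and 9.0% lower. The median log2 difference was 0.46, against 0.01 for all genes. Only 4 genes had all HPBCD libraries above all vehicle libraries (7.46% of all genes), and 1, Ids, had all below (5.98% of all genes). The count of 13 depended on single libraries. It rose to 28 when vehicle replicate 3 was left out and to 22 when HPBCD replicate 2 was. It was 3 without HPBCD peri-infarct replicate 3, 4 without HPBCD replicate 4, 4 without vehicle replicate 1, 4 without vehicle replicate 2, 5 without HPBCD replicate 5, and 8 without either vehicle replicate 4 or 5. Ctsk, Manba and Fuca1 rose and Ids fell in all 10 of these fits.

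Manba and Ids had the lowest adjusted p of the list. Manba, which encodes β-mannosidase, measured 11.5, 10.9, 15.3, 13.6 and 12.5 CPM in the peri-infarct libraries labelled vehicle and 19.3, 19.4, 23.6, 25.1 and 17.9 CPM in those labelled HPBCD, without overlap (log2 fold change 0.72 ± 0.12 SE, adjusted p = 0.0128 by edgeR). Fuca1 went from 34.7, 33.9, 56.8, 44.7 and 39.2 CPM to 63.8, 56.9, 72.0, 76.0 and 65.1 CPM, where the highest vehicle library was just under the lowest HPBCD library (log2 fold change 0.67 ± 0.14 SE, adjusted p = 0.015 by edgeR). Ids went the other way, from 497, 525, 536, 492 and 499.8 CPM to 409, 373, 388, 328 and 361 CPM, all HPBCD libraries being lower (log2 fold change -0.46 ± 0.08 SE, adjusted p = 0.0128 by edgeR).

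Ctsk had the largest log2 difference of the list, with 3.67, 3.95, 3.28, 8.20 and 4.07 CPM in vehicle and 12, 8.16, 20.3, 25.4 and 12.4 CPM in HPBCD peri-infarct libraries (log2 fold change 1.74 ± 0.33 SE, adjusted p = 0.013 by edgeR). The groups touched only through vehicle replicate 4, at 8.20 CPM, and HPBCD replicate 2, at 8.16 CPM. Lamp2 (ENSMUSG00000016534, chrX:38401357-38456454, minus strand), a membrane glycoprotein needed for chaperone-mediated autophagy, measured 99.8, 73.2, 139, 138 and 121 CPM and 188, 147, 233, 266 and 186 CPM, without overlap (log2 fold change 0.83 ± 0.19 SE, adjusted p = 0.0188 by edgeR), and had an adjusted p of 0.0534 without HPBCD replicate 3. Lamp1 (ENSMUSG00000031447, chr8:13159161-13175338, plus strand) measured 446, 390.4, 620.3, 531 and 559.7 CPM and 690.1, 559, 731, 909 and 746 CPM, with overlap (log2 fold change 0.51 ± 0.15 SE, adjusted p = 0.0364 by edgeR). Scarb2 rose by 0.36 (edgeR adjusted p = 0.0353), also without overlap.

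The remaining genes called higher were Ctsc (log2 fold change 1.15), Cd63 (0.97), Ctsl (0.82), Gusb (0.71), Hexa (0.70), Sgsh (0.56) and Tfeb (0.55), with edgeR adjusted p from 0.0295 to 0.0446. Their libraries overlapped between treatments. Smpd1 fell by 0.32 on the log2 scale (adjusted p = 0.0394 by edgeR), from 82.5, 87.7, 79.8, 79.4 and 90.6 CPM to 82.9, 63.1, 66.2, 58.1 and 68.2 CPM, and overlapped through HPBCD replicate 1. Its call was lost without vehicle replicate 1, 2 or 5 or HPBCD replicate 3, 4 or 5 (adjusted p up to 0.0901). Ctsc, Cd63, Hexa, Sgsh, Lamp1 and Tfeb lost their calls in 5 to 7 of the 10 fits without 1 library. The most abundant proteases were not called: Ctsd had a level of 1019.8 ± 505 CPM in libraries labelled vehicle and 1692 ± 469 CPM in those labelled HPBCD (SD, n = 5 each), with a log2 difference of 0.72 ± 0.32 SE, adjusted p = 0.116 by edgeR. Ctss differed by 0.69 (adjusted p = 0.131) and Ctsb by 0.54 (0.0751). The cofactor gene Grn differed by 0.45 (0.194) and was not called either.

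**Figure D3:**
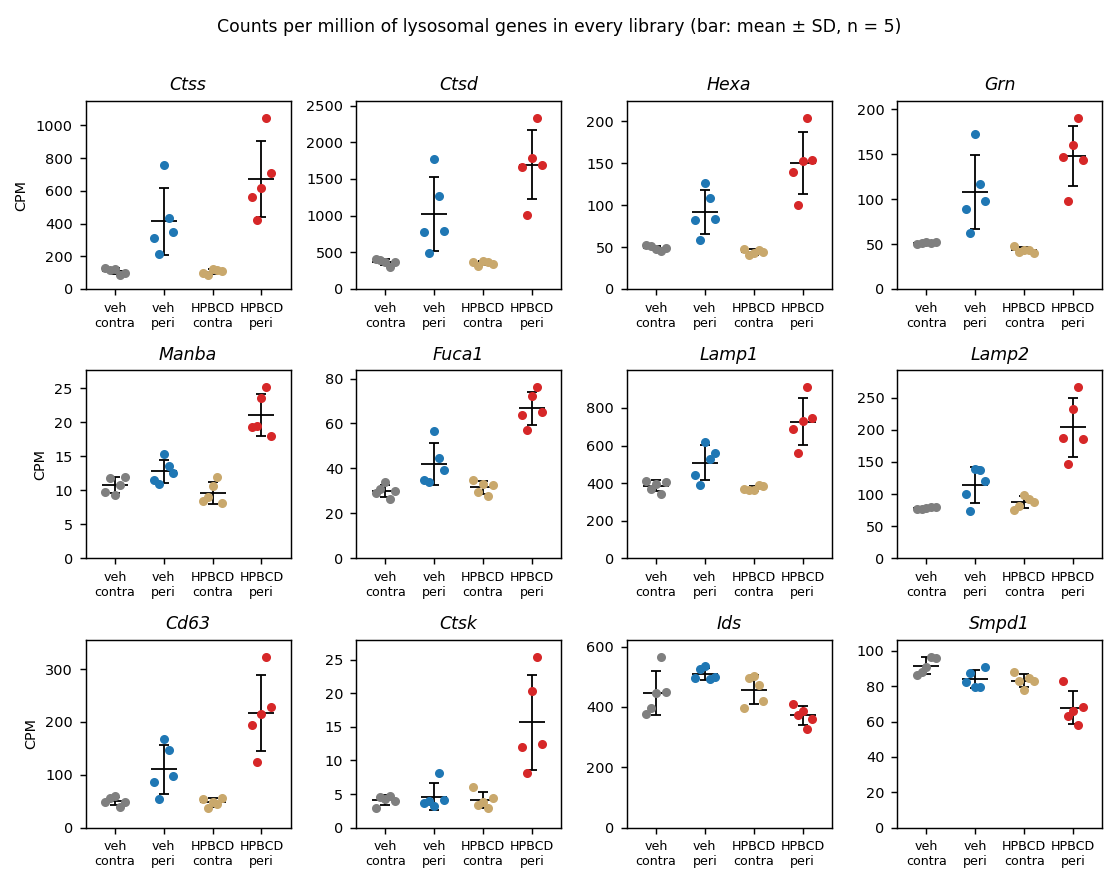
Each panel plots the CPM of 1 gene in every library of the 4 groups (veh, vehicle; contra, contralateral; peri, peri-infarct), with the mean and SD of 5 libraries. Manba, Fuca1 and Lamp2 separate the peri-infarct groups without overlap, Ids separates them downwards, and the widest spread is seen in peri-infarct libraries.

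Markers of several cell types also differed between these libraries. None of 8 microglia markers was called by edgeR (median log2 difference 0.33, and 1 at an unadjusted p below 0.05), and 1 of 10 lipid-laden markers was called higher (median 0.86). Among perivascular macrophage markers 5 of 7 were higher (median 1.51), all 5 fibroblast markers were higher (median 2.61) and 7 of 8 neuron markers were lower (median -0.64). Called higher too were 3 of 6 reactive astrocyte (median 1.01), 3 of 5 ependyma (1.43), 2 of 4 choroid plexus (2.25), 2 of 7 oligodendrocyte (0.61), 2 of 7 astrocyte (0.18) and 1 of 5 endothelial markers (0.09). The same held for 2 of 3 markers tested of monocytes and neutrophils and 1 of 3 of B and plasma cells, and 0 of 8 striatum and 0 of 4 T cell markers were called by edgeR (0 and 1 at an unadjusted p below 0.05). The fibroblast sum ranged from 45.1 to 255 CPM in vehicle and from 292 to 957 CPM in HPBCD peri-infarct libraries. The part of these markers in the differences of the lysosomal genes was not tested.

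In contralateral tissue 0 of 44 genes were called by edgeR between treatments, as was 0% of all 15469 genes tested. DESeq2 and limma voom also called 0 of the 44. Of 8 striatum markers 0 were called, with 7 at an unadjusted edgeR p below 0.05 (median log2 difference -1.98). All 7 oligodendrocyte markers lay below 0 (median -0.45), and 1 had such a p. The striatum sum was 3375 CPM in vehicle contralateral replicate 1. The log2 differences of the 44 genes lay between -0.29 (Idua) and 0.15 (Lamp2), and the lowest adjusted p was 0.422. At an unadjusted p below 0.05 there were 4 genes, Gaa, Arsa, Smpd1 and Grn, all lower in HPBCD libraries, where 7.91% of all genes had such a p. Grn measured 50.1, 51.1, 52.8, 51.0 and 51.8 CPM in vehicle and 48.1, 41.5, 43.7, 42.9 and 40.4 CPM in HPBCD contralateral libraries and was the 1 gene of the list without overlap (log2 difference -0.25 ± 0.06 SE, adjusted p = 0.422 by edgeR), as 0.549% of all genes were lower in every library.

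**Figure D4:**
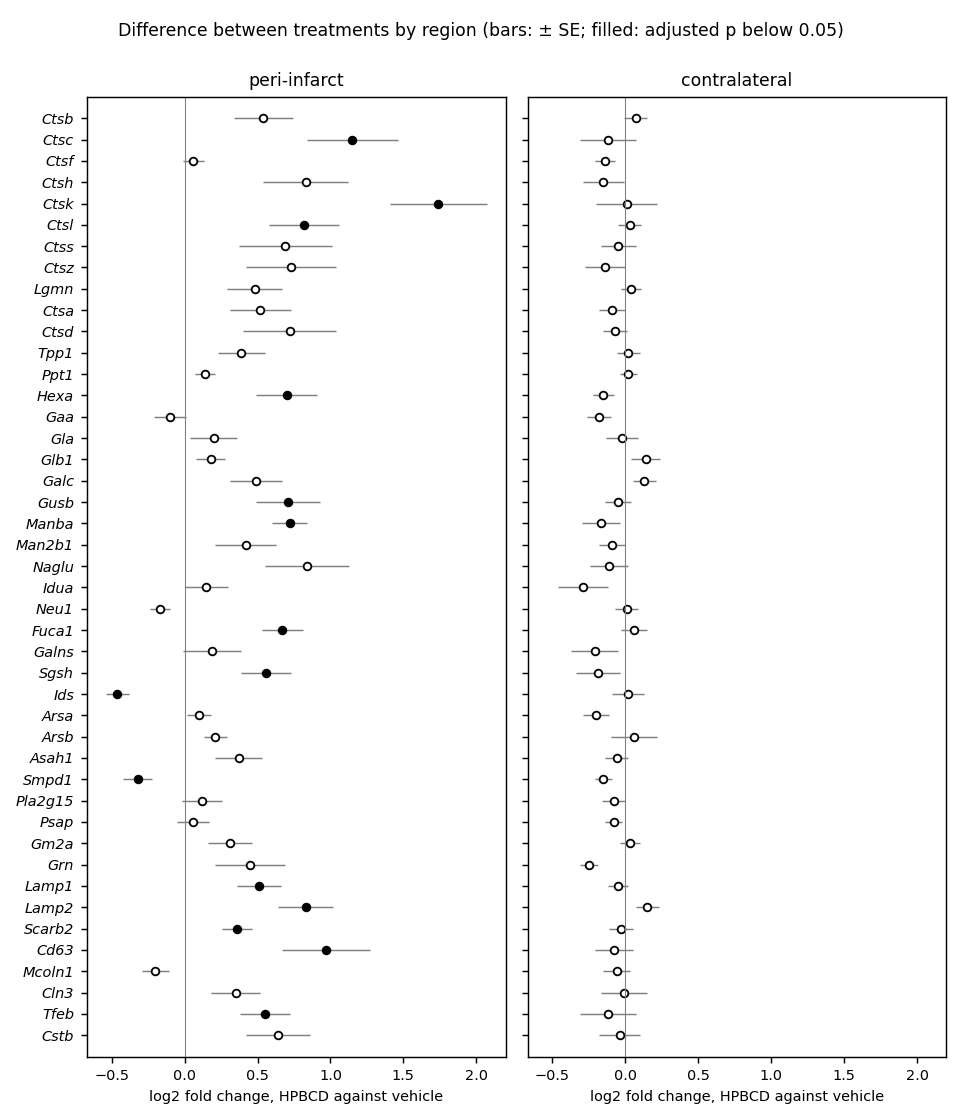
Points give the log2 fold change between HPBCD and vehicle libraries for each of the 44 genes in peri-infarct (left) and contralateral tissue (right), with SE bars. Filled points have an edgeR adjusted p below 0.05. Filled points appear only on the left, 13 above and 2 below 0, and all contralateral points lie between -0.29 and 0.15.

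Whether the region difference itself differed between treatments was tested by the interaction over all 20 libraries. It was larger in HPBCD mice for 7 of 44 genes (15.9%) and lower for 1 (2.27%), where 5.03% of all 16758 genes were called higher and 4.38% lower. This test uses the same libraries as the comparisons above. The median interaction was 0.46, against 0.01 for all genes. Of the genes called, the largest interactions were those of Ctsk (1.74 ± 0.41 SE, adjusted p = 0.0208 by edgeR), Ctsc (1.26 ± 0.39 SE, adjusted p = 0.0481 by edgeR) and Manba (0.89 ± 0.18 SE, adjusted p = 0.0156 by edgeR). Hexa (0.85), Sgsh (0.75), Fuca1 (0.60) and Lamp1 (0.56) followed, with edgeR adjusted p from 0.0337 to 0.0431. Ids had an interaction of -0.49 ± 0.14 SE, adjusted p = 0.0354 by edgeR. It was higher on the peri-infarct side in 4 of 5 vehicle mice and in 1 of 5 HPBCD mice. Several marker lists also had called interactions. Called lower were 6 of 8 neuron markers. Called higher were 4 of 5 fibroblast, 4 of 5 ependyma, 3 of 6 reactive astrocyte and 3 of 7 oligodendrocyte markers. Of 8 microglia, 10 lipid-laden and 8 striatum markers 0 were called by edgeR (1, 2 and 8 at an unadjusted p below 0.05). The part of these markers in the interaction of the 44 genes was not tested.

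With the mouse as a replicate block the interactions of Ctsc and Sgsh were no longer called (adjusted p = 0.0542 and 0.0677), while those of Ctsh, Ctsl, Lamp2 and Scarb2 were (adjusted p = 0.0494, 0.0485, 0.0356 and 0.0451). Ctsk and Manba were called in all 20 fits that left out 1 library. The count of 7 became 24 when vehicle peri-infarct replicate 3 was dropped, 22 when HPBCD peri-infarct replicate 2 was, and 2 without any 1 of vehicle peri-infarct replicates 1 and 2, vehicle contralateral replicates 1, 2 and 3, HPBCD peri-infarct replicates 3 and 4, and HPBCD contralateral replicates 2 and 4. It was 3 without HPBCD contralateral replicate 5 and 4 without HPBCD contralateral replicate 1. The call of Ids was lost in 12 of the 20 fits, with adjusted p up to 0.0658.

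The summed level of the 44 genes differed among libraries of each peri-infarct group. It was 5059.9 to 5346 CPM in vehicle contralateral and 4907 to 5288 CPM in HPBCD contralateral libraries. In vehicle peri-infarct replicates 1 to 5 it was 6394, 5564, 9734, 8079 and 6987 CPM, and in HPBCD peri-infarct replicates 9542, 7154, 10217, 12213 and 9657 CPM. All peri-infarct sums exceeded all contralateral sums, while the peri-infarct sums of the treatments overlapped. Replicate 3 of the vehicle peri-infarct libraries was the highest of its group for 34 of 44 genes but the lowest for 3, and replicate 2 was the lowest for 32. In the HPBCD peri-infarct group, replicate 4 was highest for 34 genes and lowest for 5, and replicate 2 lowest for 36. The share of all genes that order the libraries this way was not computed. The same libraries were highest in microglia markers (839 CPM in vehicle replicate 3, 902 CPM in HPBCD replicate 4) and lowest in them (383 CPM in vehicle replicate 2, 564 CPM in HPBCD replicate 2). Neuron markers were lowest in vehicle replicate 3 (6065 CPM) and HPBCD replicate 4 (3367 CPM) of the peri-infarct groups.

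**Figure D5:**
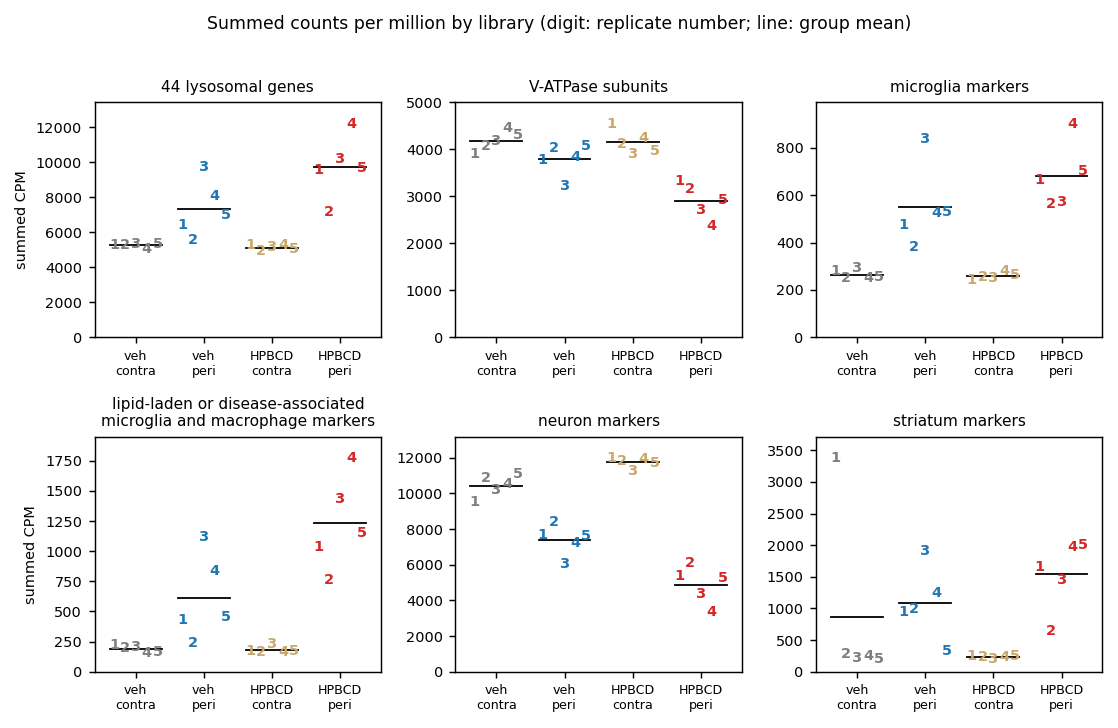
Panels give the summed CPM of the 44 lysosomal genes, of V-ATPase subunits and of 4 marker lists in each library, drawn as its replicate number, with the group mean as a line. The sum of the 44 genes runs from 4907 to 5346 CPM in contralateral and from 5564 to 12213 CPM in peri-infarct libraries, and the highest and the lowest library of each peri-infarct group are the same for the microglia and lipid-laden markers. The mean lines of V-ATPase subunits and neuron markers are lower in the peri-infarct than in the contralateral groups.

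Other genes of the lysosome, 84 in 6 lists, are given as counts, to be read against the 10.5% of all genes called higher and 9.70% called lower in vehicle mice and the 30.3% and 24.3% in HPBCD mice. No difference between treatments was tested for a list. Of further hydrolases, 8 of 19 tested rose in vehicle mice, and 15 of 20 rose and 3 fell in HPBCD mice. Dnase2a, the acid nuclease of phagocytic digestion, rose by 1.41 in log2 units in vehicle mice (edgeR adjusted p = 0.0108). On the opposite strand Mast1 covers 30.0% of its exon bases. The macrophage membrane proteins Cd68 and Laptm5 rose by 2.27 and 1.43 in vehicle and by 3.30 and 2.15 in HPBCD mice. In the whole list of other membrane and transport proteins 4 of 17 rose and 1 fell in vehicle mice, and 8 rose and 2 fell in HPBCD mice.

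Subunits of the V-ATPase, the proton pump that acidifies the lysosome and also fills synaptic vesicles, had negative medians. In vehicle mice 6 of 19 tested fell and 1 rose (median log2 difference -0.17), and in HPBCD mice 11 of 20 fell and 4 rose (median -0.43). Atp6v1e1 measured 300.0, 327, 321, 322 and 336 CPM in vehicle contralateral and 243, 269, 221, 264 and 255 CPM in vehicle peri-infarct libraries, all lower (log2 fold change -0.37 ± 0.07 SE, adjusted p = 0.00439 by edgeR). The subunit that rose in vehicle mice was Tcirg1, the form of the membrane subunit known from osteoclasts and macrophages, from 11.4, 11.2, 11.3, 7.56 and 8.32 CPM to 14.1, 10.7, 33.9, 22.7 and 16.8 CPM (log2 fold change 0.97 ± 0.28 SE, adjusted p = 0.0292 by edgeR). Between treatments in peri-infarct tissue 12 of 20 subunits were lower and 1 higher in HPBCD libraries, where 9.0% of all genes were called lower and 12.4% higher. The neuron markers moved the same way in these comparisons.

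Sorting genes, among them the mannose 6-phosphate receptors M6pr and Igf2r, were not called in vehicle mice by edgeR (0 of 9, and 3 at an unadjusted p below 0.05). In HPBCD mice 4 of 9 rose and 1 fell. Of the MiT factors and lysosomal regulators of mTORC1, 1 of 15 rose (Fnip2, log2 fold change 0.70 ± 0.15 SE, adjusted p = 0.00833 by edgeR) and 1 fell (Lamtor3, -0.34 ± 0.08 SE, adjusted p = 0.0149 by edgeR) in vehicle mice, and 3 rose and 3 fell in HPBCD mice, shares below those of all genes. Among the 3 cystatins, inhibitors of cysteine proteases, Cst7 rose by 4.27 and Cst6 fell by 0.73 on the log2 scale in vehicle mice (edgeR adjusted p = 0.00194 and 0.0318). Cst7 measured 1.21, 1.09, 0.355, 0.217 and 0.443 CPM in contralateral and 7.90, 3.49, 27.5, 15.3 and 11.0 CPM in peri-infarct libraries.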

How the data were processed

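The authors prepared stranded mRNA libraries and, per the submitters' processing notes, used bcl2fastq 2.19, Trimmomatic 0.32, STAR 2.5.2b, HTSeq and the GRCm38 build. The deposited values are raw counts per Ensembl gene, 1 table per library and 20 in all. Which annotation release was counted, and with which strand setting, is not given in the sources used here. Summary lines without a gene entered neither library sizes nor tests: no feature 4.39% to 9.5% of read pairs, ambiguous 3.94% to 8.03% and not unique 16.58% to 24.3%. Symbols and coordinates (GRCm38, counted from 1) come from GENCODE M21, in which 98.16% of the 46078 genes were found. No pair of tables was identical.

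All genes past filterByExpr were tested with the two-sided quasi-likelihood test of edgeR 4.0.16 (R 4.3.3) with TMM factors and Benjamini-Hochberg adjustment over all genes tested, at a threshold of 0.05. Comparisons of groups used their 10 libraries and the interaction all 20. Standard errors are the size of the log2 fold change over the root of its F value. CPM are TMM-scaled over the 20 libraries, with no pseudocount. A count of 3 was the floor, which covers counting error only. The steps were tested on data simulated for the contralateral treatment comparison and for the interaction only. A limit on the share of false calls was required there of edgeR and limma voom, not of DESeq2.

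Libraries of both regions that share a number within a treatment share an animal identifier in their deposited names, so the number pairs them. Their deviations from group means correlated with r from -0.125 to 0.420 over the 10 pairs, 5 of them over 0.1, and the pairing rests on the identifier. The alternatives were DESeq2 1.42.0, limma 3.58.1 voom, RLE and upper quartile factors, no filter, at least 10 counts in every sample, a replicate block, all 4 groups in 1 fit, and leaving out each library.

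Members and lists were chosen with earlier results of these data known. Given with full values were the called members with the largest log2 fold change in the vehicle region comparison of each role group (1, or 2 in groups of 4 or more), members called between treatments or in the interaction (the 6 with the smallest adjusted p in each), those called against most of their role group, and Lamp1, Lamp2, Ctsd and Tfeb. Of each list of other lysosomal genes, the 2 with the largest log2 fold change among those called in the vehicle region comparison were named, except 1 that is not reported here; M6pr and Igf2r serve as examples. Promoters are from RefSeq.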

Additional observations from a re-analysis of the deposited data

Results flagged for a closer look

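In groups of 5 libraries, 3 of 96 single-gene groups had 1 library far from the others by Dixon's criterion, which chance alone gives in about 1 group in 20. Cstb was lowest in vehicle contralateral replicate 4, at 10.4 CPM. Ctsk was highest in vehicle peri-infarct replicate 4, at 8.20 CPM. Tfeb was highest in HPBCD contralateral replicate 4, at 10.3 CPM.

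The region difference differed between treatments, by the edgeR interaction over 20 libraries, for 8 of the 44 genes (5.03% of all genes were called higher and 4.38% lower). It was larger in HPBCD mice by 1.74 on the log2 scale for Ctsk, 1.26 for Ctsc, 0.89 for Manba, 0.85 for Hexa, 0.75 for Sgsh, 0.60 for Fuca1 and 0.56 for Lamp1. For Ids the interaction was -0.49. The number with a larger region difference, 7, went up to 24 and 22 in fits that dropped vehicle replicate 3 or HPBCD replicate 2 of the peri-infarct libraries, and down to 2 in 9 of the 20 fits without 1 library and to 3 with no filter on low counts. With the replicate block Ctsc and Sgsh were not called.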

How the results depend on the processing

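Counts are of the 44 genes. Between regions in vehicle mice the 21 higher genes were 18 to 24 under the 8 other settings and 13 to 25 without 1 library, and the 0 lower genes were 1 with DESeq2, 1 with all 4 groups in 1 fit and 0 to 1 without 1 library. In HPBCD mice the 37 higher and 4 lower genes stayed within 34 to 39 and 3 to 4. Between treatments in peri-infarct tissue the 13 higher genes were 27 with a replicate block, 25 with all 4 groups in 1 fit and 3 to 28 without 1 library, and the 2 lower genes were 1 with no filter on low counts and 1 to 2 without 1 library. The interaction's 7 higher genes were 3 with no filter, 14 with DESeq2 and 2 to 24 without 1 library, and its 1 lower gene was 0 to 1. The contralateral count was 0 under each setting run. The cause of these shifts was not tested.

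The replicate block paired the regions of a mouse and gave 18 genes in vehicle mice, 37 in HPBCD mice and 9 in the interaction. Between treatments the number is a name only, and the block's 27 genes do not rest on a pairing.

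Reversed signs were seen in vehicle mice for genes that were not called: Cstb at -0.03 without peri-infarct replicate 4 and -0.0047 without contralateral replicate 4, and Ctsk at -0.14 without peri-infarct replicate 4. Over all 10 fits without 1 library Cstb ran from -0.03 to 0.14 and Ctsk from -0.14 to 0.28. Every gene exceeded the floor of 3 counts in every library, and whether depth limited the calls of the low genes was not tested. The dissected regions differ in striatal and neuronal markers, the treatments come from different mice, and the counts cannot check the treatment labels.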
